A study of Arabidopsis thaliana with 12 samples.

Results

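Auxin levels in a plant cell are set by synthesis, inactivation and transport, and 4 Arabidopsis thaliana genes with a role in 1 of these steps are described here across all 12 arrays of an auxin time course. YUC6 (AT5G25620) encodes a flavin monooxygenase of auxin synthesis. UGT84B1 (AT2G23260) encodes a glucosyltransferase that attaches glucose to auxin. AT1G14120, also known as DAO2, encodes a dioxygenase related to the auxin oxidase DAO1. WAG2 (AT3G14370) encodes a protein kinase that acts on the PIN auxin efflux carriers. The genes were chosen by symbol, with earlier results of these data known. Each was read from the 1 probe set that the platform annotation pairs with that gene alone. This gives 4 of the 17504 probe sets with a gene name. No probe or promoter sequences were used here.

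Indole-3-acetic acid (IAA) is the main natural auxin. It is made from tryptophan by TAA/TAR aminotransferases followed by YUC flavin monooxygenases, whose step is regarded as limiting. It is removed by GH3 enzymes, which join it to amino acids, by DAO dioxygenases, which oxidise it, and by UGT glucosyltransferases, which form its glucose ester. PIN carriers move it out of cells, and kinases of the PID/WAG group phosphorylate PINs and influence their polarity and activity. Transcription of several genes in these steps is known to respond to auxin itself, with GH3 genes among them.

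Whole wild-type Col-0 seedlings, labelled as 7 days old, were shaken in liquid medium for 24 h. They then received 0.1% DMSO (mock) or 1 µM IAA dissolved in DMSO, for 15 min or 3 h, with 3 arrays in each of the 4 groups. The experiment was repeated on 3 different days, 10 seedlings were kept in a tube, and nothing in the labels says how many tubes an array stands for. The treatment protocol in the labels lists 30 min, 1 h and 3 h, which conflicts with the 15 min of the titles followed here. Levels are log2 values made by RMA, whose usual steps are background subtraction, normalization between arrays and a summary of each gene's probes, so low levels are compressed. In whole seedlings, fewer cells of a type and less RNA per cell cannot be told apart.

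The arrays numbered 1 stood apart from the others. On the 4 of them the interquartile range of all levels was 2.88 to 3.79, against 3.89 to 3.92 elsewhere, with the lowest value on the IAA 3 h array. The deposited levels thus did not share a common distribution over the arrays. Results that rest on those arrays are therefore given with and without them. The root-enriched transcript PYK10 and the leaf transcript RCA, rubisco activase, were both near the top of every array, at percentiles of 99.2 or higher. RCA differed between IAA and mock at 3 h by -0.01 (SE 0.12). PYK10 differed by -0.19 (SE 0.15) there, with same-numbered differences of -0.56, -0.04 and 0.02. The part of root share in the results was not tested.

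YUC6 transcript was lower in IAA than in mock at 3 h on each array, but whether the difference passed depended on the fit. Its log2 levels were 4.44, 4.64 and 4.61 on the mock 3 h arrays numbered 1, 2 and 3, and 3.28, 3.83 and 3.64 on the IAA 3 h arrays. The groups did not overlap, and each IAA 3 h array lay below every one of the other 9 arrays of the series. At 15 min the levels were 4.09, 4.56 and 4.17 in mock and 4.03, 4.10 and 4.24 in IAA, and these groups overlapped. The IAA 3 h level was 1.96-fold lower than mock (95% interval 1.5 to 2.56), a log2 difference of -0.97 with an SE of 0.18 (n = 3 against 3).

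Whether YUC6 passes the threshold at 3 h depends on the fit. The limma adjusted p over all 17504 probe sets was 0.0557 in a fit of the 4 groups without the replicate number. It was 0.0117 (SE 0.13) with the number as a replicate block. Same-numbered mock and IAA arrays at 3 h deviated together only weakly, with correlations of 0.117 to 0.172 over all probe sets. The IAA 3 h arrays deviated more with the same-numbered 15 min arrays (0.518 to 0.705). The block fits the same effect of a number in all 4 groups, although mock at 3 h followed the others least. Over the 24 alternatives the adjusted p ran from 0.000433 to 0.361, and all 24 of the 95% intervals lay below 0. Many of these settings cannot move the difference itself and change only its spread or p. YUC6 passed in 8 of the 24, and in 0 of the 12 that leave out 1 array. By p it ranked 46 among the 17504 probe sets without the block and 40 with it. In that comparison 0.0686% of all probe sets were called lower without the block and 0.257% with it, and 4.65% had groups that did not overlap with IAA lower.

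The same-numbered differences of YUC6 at 3 h were -1.16, -0.80 and -0.96 for the arrays numbered 1, 2 and 3, so the direction was shared by 3 of 3 pairs. Without the 4 arrays numbered 1 the log2 difference was -0.88 and the adjusted p 0.0255. Quantile normalization, which gives the arrays one distribution, lowered the IAA 3 h array numbered 1 from 3.28 to 2.75 and gave a log2 difference of -1.12 (adjusted p 0.201, and 0.0532 with the replicate block). Of the tested probe sets 0.897% had all 3 IAA 3 h arrays below the other 9.

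At 15 min YUC6 had a log2 difference of -0.15 (SE 0.18, 95% interval -0.53 to 0.23, limma adjusted p 1), with same-numbered differences of -0.06, -0.46 and 0.07. The interval does not reach the size of the 3 h difference. The response at 3 h minus that at 15 min was -0.82 (SE 0.25, limma unadjusted p 0.00645). This did not pass over all probe sets, with an adjusted p of 0.999 without and 0.474 with the replicate block. Limma called 0.0114% of all probe sets for this difference without the block and 0.0171% with it. Between the mock groups YUC6 was 0.29 higher at 3 h than at 15 min (SE 0.18, adjusted p 0.999). From IAA at 15 min to IAA at 3 h the difference was -0.53 (SE 0.18, adjusted p 0.713), and limma called 0.0743% of all probe sets there. These groups did not overlap, as was the case with the later time lower for 4.82% of all probe sets. The last 2 comparisons share arrays with those of IAA against mock.

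**Figure D1:**
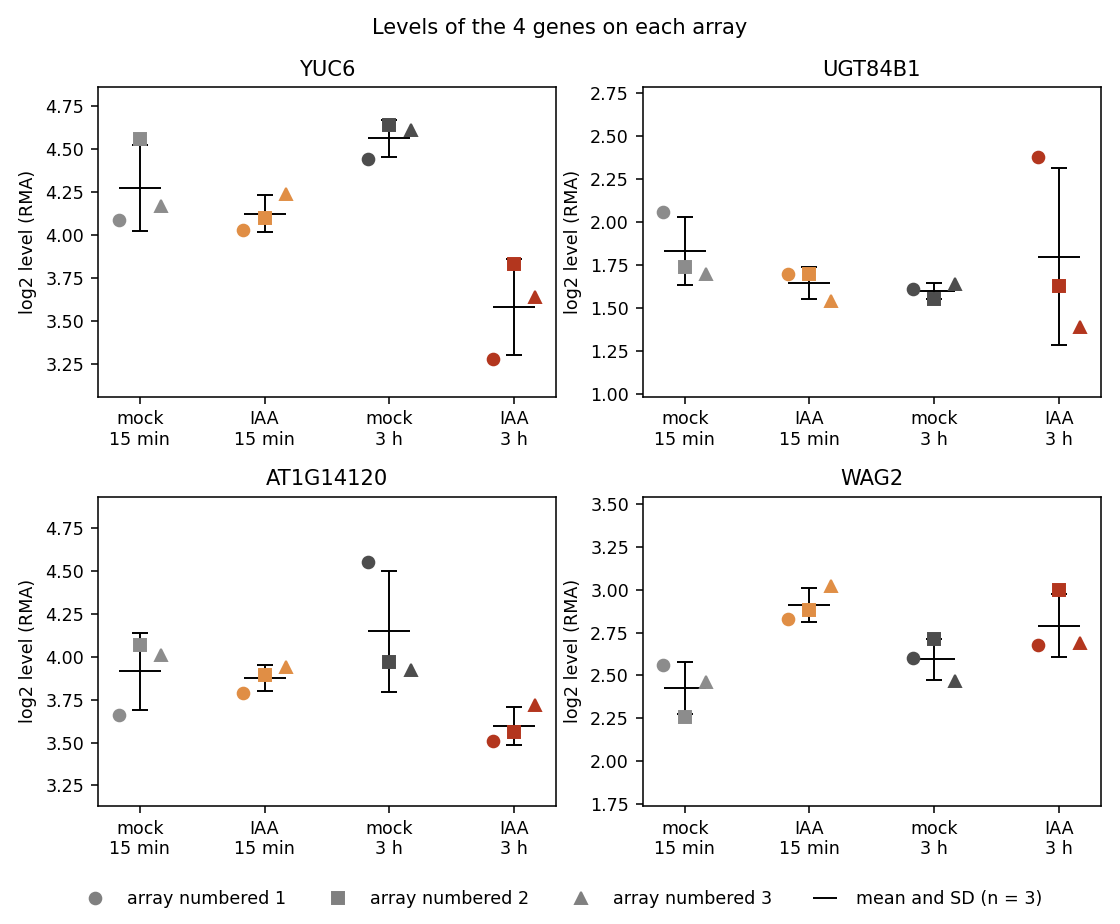
Log2 level (RMA, vertical axis) of YUC6, UGT84B1, AT1G14120 and WAG2 on each array, by group, with the marker giving the array number and the black line the mean with its SD (n = 3). The 3 YUC6 points of IAA at 3 h lie at 3.28 to 3.83, below all others, and the 3 WAG2 points of IAA at 15 min, at 2.83 to 3.02, lie above those of mock, at 2.26 to 2.56.

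The other measured YUC genes, which encode flavin monooxygenases of the same family, were not called at 3 h, and their mean differences rested on the arrays numbered 1. YUC2, YUC4 and YUC11 had log2 differences of 0.20 (SE 0.18), 0.22 (SE 0.25) and 0.29 (SE 0.29) at 3 h, with adjusted p from 0.78 to 0.79. YUC2 stood at 3.08, 3.22 and 3.25 in mock and at 3.62, 3.26 and 3.28 in IAA, so the arrays numbered 2 and 3 differed by 0.04 and 0.03. YUC11 was at 2.16 to 2.30 in mock at 3 h and at 3.18, 2.18 and 2.26 in IAA, where 1 array, numbered 1, was high. The same-numbered differences at 3 h were 0.81, -0.18 and 0.04 for YUC4 and 1.01, -0.12 and -0.03 for YUC11. Without the 4 arrays numbered 1 the log2 difference was 0.03 for YUC2, and it turned to -0.07 for YUC4 and -0.08 for YUC11. The 95% intervals of these 3 genes reached down to -0.18, -0.33 and -0.35, short of the interval of YUC6 (-1.36 to -0.59). The difference between the responses of YUC6 and its relatives was not tested.

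AT1G14120 was lower in IAA than in mock at 3 h on average, but the difference did not pass. Its levels were 4.55, 3.97 and 3.92 in mock and 3.51, 3.56 and 3.72 in IAA at 3 h. The groups did not overlap, and the mock array numbered 1 was the highest of all 12 for this gene. The log2 difference was -0.55 (SE 0.18, 95% interval -0.96 to -0.15, limma unadjusted p 0.0113, adjusted p 0.637), a 1.47-fold lower level. Over 24 alternatives the adjusted p ran from 0.106 to 0.909. The same-numbered differences were -1.05, -0.41 and -0.20, and without the arrays numbered 1 the log2 difference was -0.31. YUC6 and AT1G14120 were among the 4.65% of all probe sets that were lower without overlap in this comparison. The 4 genes were chosen with earlier results of these data known, so their share among these probe sets carries no weight.

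At 15 min AT1G14120 stood at 3.66, 4.07 and 4.01 in mock and at 3.79, 3.89 and 3.94 in IAA. These groups overlapped, and the log2 difference was -0.04 (SE 0.18, 95% interval -0.45 to 0.36, adjusted p 1). The response at 3 h minus that at 15 min was -0.51 (SE 0.26, adjusted p 0.999). The 3 IAA arrays at 3 h lay below the 3 IAA arrays at 15 min, as was the case for 4.82% of all probe sets. The log2 difference was -0.28 (SE 0.18, adjusted p 1).

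AT1G14130 (DAO1), the neighbouring gene that encodes the main auxin oxidase of seedlings, had the opposite sign at 3 h. Its levels were 3.43, 3.49 and 3.75 in mock and 4.06, 3.63 and 3.98 in IAA, with overlap. The log2 difference was 0.34 (SE 0.19, 95% interval -0.07 to 0.74, adjusted p 0.78), positive in 3 of 3 same-numbered pairs (0.63, 0.15 and 0.23). The arrays numbered 1 gave the largest of these, and over 24 alternatives the difference ran from 0.19 to 0.46. The opposite signs of the 2 neighbours were not tested against each other.

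UGT84B1 was near the bottom of every array, where values are compressed, and no difference of this gene passed. Its 12 levels ran from 1.39 to 2.38, at percentiles between 0.304 and 6.97 of the array they were measured on, and the highest was that of the IAA 3 h array numbered 1. The levels at 3 h were 1.61, 1.55 and 1.64 in mock and 2.38, 1.63 and 1.39 in IAA. Those at 15 min were 2.06, 1.74 and 1.70 in mock and 1.70, 1.70 and 1.54 in IAA. The 15 min groups met at 1.70, and at 3 h the IAA arrays lay on both sides of mock.

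The log2 difference of UGT84B1 was -0.19 at 15 min (SE 0.22, 95% interval -0.67 to 0.30, adjusted p 1) and 0.20 at 3 h (SE 0.22, 95% interval -0.29 to 0.68, adjusted p 0.791). The sign at 3 h turned without the 4 arrays numbered 1 or without the IAA 3 h array numbered 1 alone, to -0.09 in either case. Mock at 3 h lay below mock at 15 min without overlap, as was the case for 7.1% of all probe sets, with a log2 difference of -0.23 (SE 0.22, adjusted p 0.999).

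UGT84B2, the neighbouring glucosyltransferase gene, was high on 2 arrays, those of IAA numbered 1. It stood at 4.57 at 15 min and 4.95 at 3 h on these, and at 2.65 to 3.43 on the other 10. Its log2 differences of 0.46 (SE 0.55) at 15 min and 0.35 (SE 0.55) at 3 h therefore came from the arrays numbered 1, where the same-numbered differences were 1.29 and 1.52 against values between -0.42 and 0.15 for the other numbers. Without those arrays the difference at 3 h was -0.24. UGT74D1, a glucosyltransferase gene of auxin and its oxidised form, differed by -0.17 (SE 0.33) at 15 min and by -0.21 (SE 0.33) at 3 h. None of these differences passed (adjusted p from 0.829 to 1).

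WAG2 was higher in IAA than in mock at 15 min on each array, by an amount that did not pass over all probe sets. Its levels were 2.56, 2.26 and 2.46 in mock and 2.83, 2.88 and 3.02 in IAA at 15 min. These groups did not overlap, and 2.11% of all probe sets were higher without overlap in this comparison. The log2 difference was 0.48 (SE 0.15, 95% interval 0.16 to 0.80), a 1.4-fold higher level, with same-numbered differences of 0.27, 0.62 and 0.56. It ranked 28 by p among the 17504 probe sets (limma unadjusted p 0.00672, adjusted p 1). With the replicate block the limma unadjusted p was 0.00732, the SE 0.14 and the rank 39. Over 23 alternatives the adjusted p ran from 0.0271, with array weights, to 1, and 22 of the 23 intervals lay above 0. Many of these settings, too, cannot move the difference itself.

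The calls over all genes bound what can be said of WAG2 at 15 min. In that comparison limma called 0% of the 17504 probe sets without the block and 0.0229% with it. A limma unadjusted p under 0.05 was reached by 111 (0.634%) without the block and by 214 (1.22%) with it. Both are smaller shares than a threshold of 0.05 passes where nothing changes and the assumptions of the fit hold. WAG2 was a dim probe set, below the 25th percentile of its array on 9 of 12 arrays.

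At 3 h WAG2 stood at 2.60, 2.71 and 2.47 in mock and at 2.68, 3.00 and 2.69 in IAA. The groups overlapped, and the log2 difference was 0.20 (SE 0.15, 95% interval -0.12 to 0.51, adjusted p 0.78). With quantile normalization it was 0.00, since the IAA array numbered 1 then stood at 2.20. The response at 3 h minus that at 15 min was -0.29 (SE 0.21, adjusted p 0.999), so the 2 times were not shown to differ.

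PID2, a kinase gene of the same PID/WAG group, was at 4.39, 4.60 and 4.64 in mock and at 4.77, 4.72 and 4.77 in IAA at 15 min. These groups did not overlap either, as was the case with IAA higher for 2.11% of all probe sets. The log2 difference was 0.21 (SE 0.14, 95% interval -0.09 to 0.51, adjusted p 1). At 3 h the difference was 0.23 (SE 0.14, adjusted p 0.78), with overlap and a same-numbered difference of -0.06 for the arrays numbered 2. The closest relative of WAG2, WAG1, was not analysed here.

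**Figure D2:**
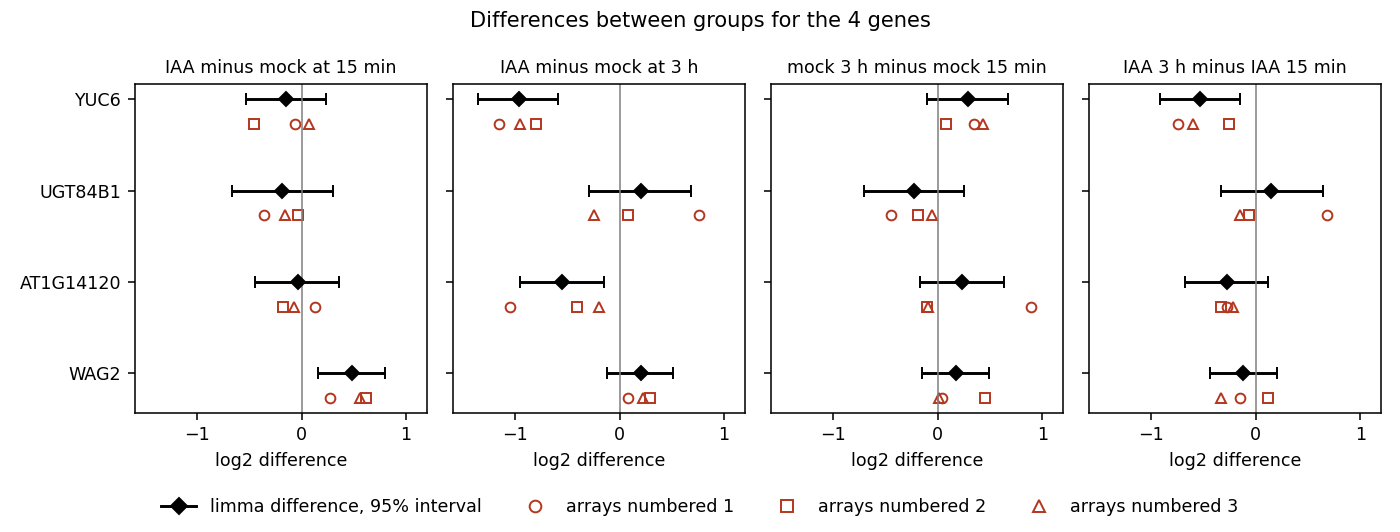
Log2 differences (horizontal axes) of the 4 genes in the 4 comparisons between groups, with black diamonds for limma's difference with its 95% interval and open red markers for the difference between same-numbered arrays. The YUC6 interval at 3 h runs from -1.36 to -0.59 and the WAG2 interval at 15 min from 0.16 to 0.80, while the UGT84B1 intervals cross 0 in all 4 panels.

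**Figure D3:**
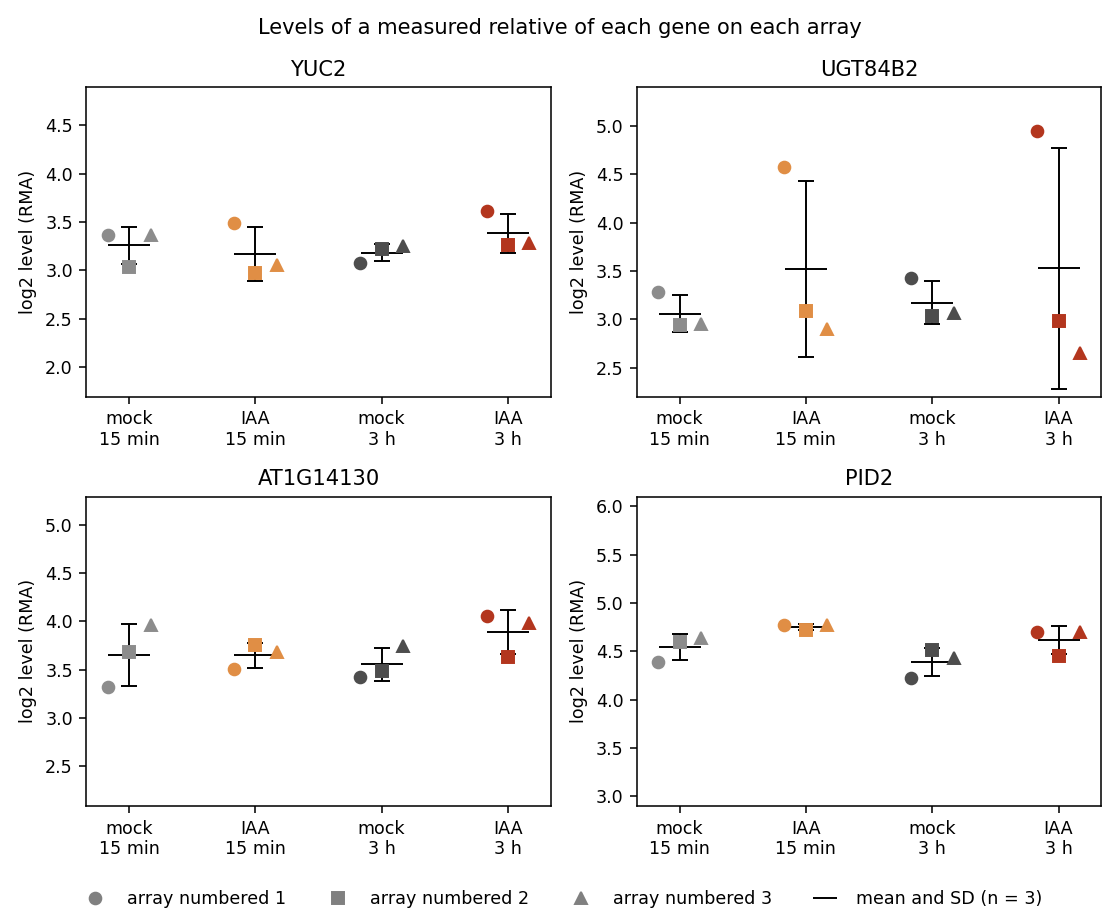
Log2 level (RMA, vertical axis) of YUC2, UGT84B2, AT1G14130 and PID2, a measured family member of each of the 4 genes, on each array by group, with the mean and SD (n = 3). The UGT84B2 points of the IAA arrays numbered 1, at 4.57 and 4.95, stand above the other 10.

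The mock groups give the background of time in the tube. Between mock at 3 h and mock at 15 min the 4 genes had log2 differences from -0.23 for UGT84B1 to 0.29 for YUC6, with adjusted p of 0.999 for each. AT1G14120 differed by 0.23 (SE 0.18), with same-numbered values of 0.89, -0.10 and -0.09, so that this came from the arrays numbered 1. WAG2 differed by 0.17 (SE 0.15). Limma called 0% of all probe sets here, with 499 at an unadjusted p under 0.05 and 0 called with the replicate block.

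Of the wider set of auxin genes, 17 of 95 listed loci had a probe set paired with that gene alone, and are called measured here. Those called higher at 3 h were 3 GH3 genes. Of the measured loci 13 are not among the 4 genes above. No tryptophan and indole precursor gene (11 loci) or conjugate-releasing hydrolase or esterase gene (8) had a probe set paired with it alone. The same held for carrier genes of the PIN, AUX1/LAX, ABCB, PILS and WAT1 kinds (24). The 758 rows paired with several genes were not searched for listed loci, and 11079 rows had no gene name. Whether the array measures these loci is thus not known here, and they are not analysed. The counts below are read beside 0.24% of all probe sets called at 3 h without and 0.514% with the replicate block.

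In the synthesis list 4 of 14 loci were measured. At 3 h 0 were called without the block and 1, YUC6, lower with it. The median log2 difference was 0.21, beside 0.06 over all probe sets, and without the 4 arrays numbered 1 it was -0.07, beside 0.00. At 15 min 0 were called and the median was -0.02, beside 0.00 over all probe sets. In the list of oxidation, glucosylation and methylation 5 of 8 were measured and 0 called at either time with or without the block, with medians of -0.04 at 15 min and 0.20 at 3 h. The median at 3 h is the value of UGT84B1 and turned to -0.09 without the arrays numbered 1. In the list of transport regulators 2 of 22 were measured, WAG2 and PID2, and 0 were called at either time.

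In the GH3 list 6 of 8 were measured, and 3 rose at 3 h, namely GH3.1 (log2 difference 3.51, SE 0.21, limma adjusted p 3.23e-05), GH3.3 (3.64, SE 0.38, 0.00227) and WES1, the GH3.5 gene (2.04, SE 0.27, 0.0109). GH3.1 and GH3.3 passed at 3 h in all 24 alternatives and WES1 in 18 of 24, with a highest adjusted p of 0.0929 in the fit of only the groups compared. WES1 also missed the threshold without any 1 of the 3 mock arrays, or without the IAA array numbered 2 or 3, at 3 h (adjusted p from 0.0501 to 0.078). GH3.4, GH3.9 and GH3.17 differed by 0.03 to 0.23 at 3 h and did not pass. The same-numbered differences were 0.44, 0.15 and 0.08 for GH3.4 and -0.36, 0.42 and 0.03 for GH3.9. For GH3.17 they were -0.40, 0.40 and 0.68, so the arrays numbered 1 went the other way. Over the alternatives the GH3.17 difference ran from -0.09 to 0.78, with a lowest limma adjusted p of 0.0671. GH3.1 stood at 4.86, 4.87 and 5.17 in mock at 3 h, and at 8.16, 8.51 and 8.77 on the IAA 3 h arrays on which YUC6 was low. At 15 min 0 GH3 genes were called without the replicate block and 1, GH3.1, higher with it (log2 difference 1.67, limma adjusted p 0.0841 without and 0.0024 with the block). GH3.3 differed by 1.63 at 15 min (adjusted p 1 without and 0.0583 with the block) and WES1 by 0.70 (1 in both fits).

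**Figure D4:**
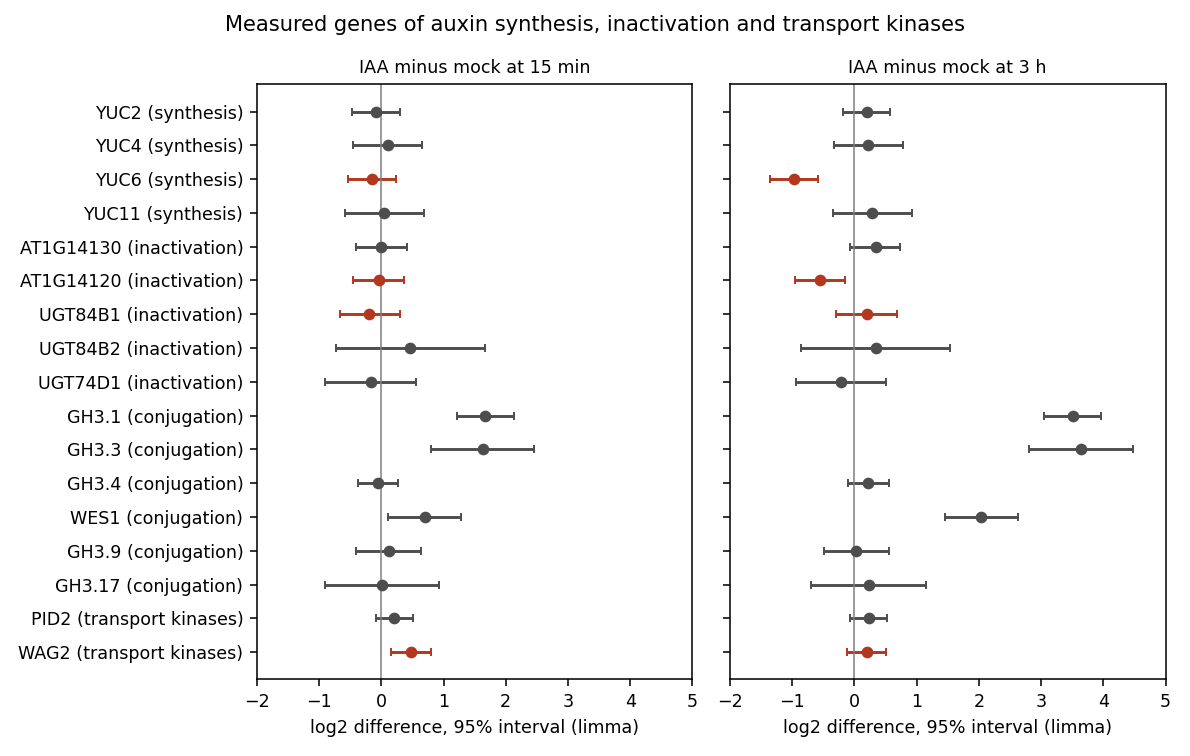
Log2 difference between IAA and mock (horizontal axes, limma, with 95% intervals) at 15 min and at 3 h for the 17 measured auxin genes, the 4 described genes in red. At 3 h YUC6, at -0.97, is the lowest, AT1G14120 follows at -0.55, and the GH3 genes GH3.1, GH3.3 and WES1 lie at 2.04 to 3.64.

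The genes most like each of the 4 were found by the Pearson correlation of log2 level over the 12 arrays, after quantile normalization and removal of the mean of each array number, among 11767 single-gene probe sets that were not dim. These correlations describe 12 arrays that share the treatment and the 3 repeats, and the spread of the arrays numbered 1 weighs on them. For YUC6 they were AT5G64850 (r 0.973), AT5G60530 (0.959) and AT1G77520 (0.957), with r of 0.899 to 0.937 over the 8 arrays numbered 2 and 3. All genes named here were picked from 11767 on the 12 arrays, so r over 8 of these is no independent check. On the levels as deposited r was 0.752 for AT5G64850, 0.933 for AT5G60530 and 0.462 for AT1G77520. AT5G64850 differed between IAA and mock at 3 h by -0.62, AT5G60530 by -0.33 and AT1G77520 by -0.79 on the log2 scale, none called.

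For AT1G14120 the most alike were AT4G16380 (r 0.985), AT1G29020 (0.976) and AT5G40530 (0.975), and r was 0.743 to 0.892 over the 8 arrays and 0.687 to 0.783 as deposited. WAG2 was most like AT4G09970 (r 0.888), AT5G65530 (0.862) and AT3G21330 (0.83), with log2 differences of 0.39, 0.25 and 0.56 at 15 min. As deposited these r were 0.847, 0.496 and 0.76. For the dim UGT84B1 they were AT5G14080 (r 0.903), AT1G67790 (0.899) and AT2G29850 (0.893). As deposited these r were 0.56, -0.281 and 0.936.

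**Figure D5:**
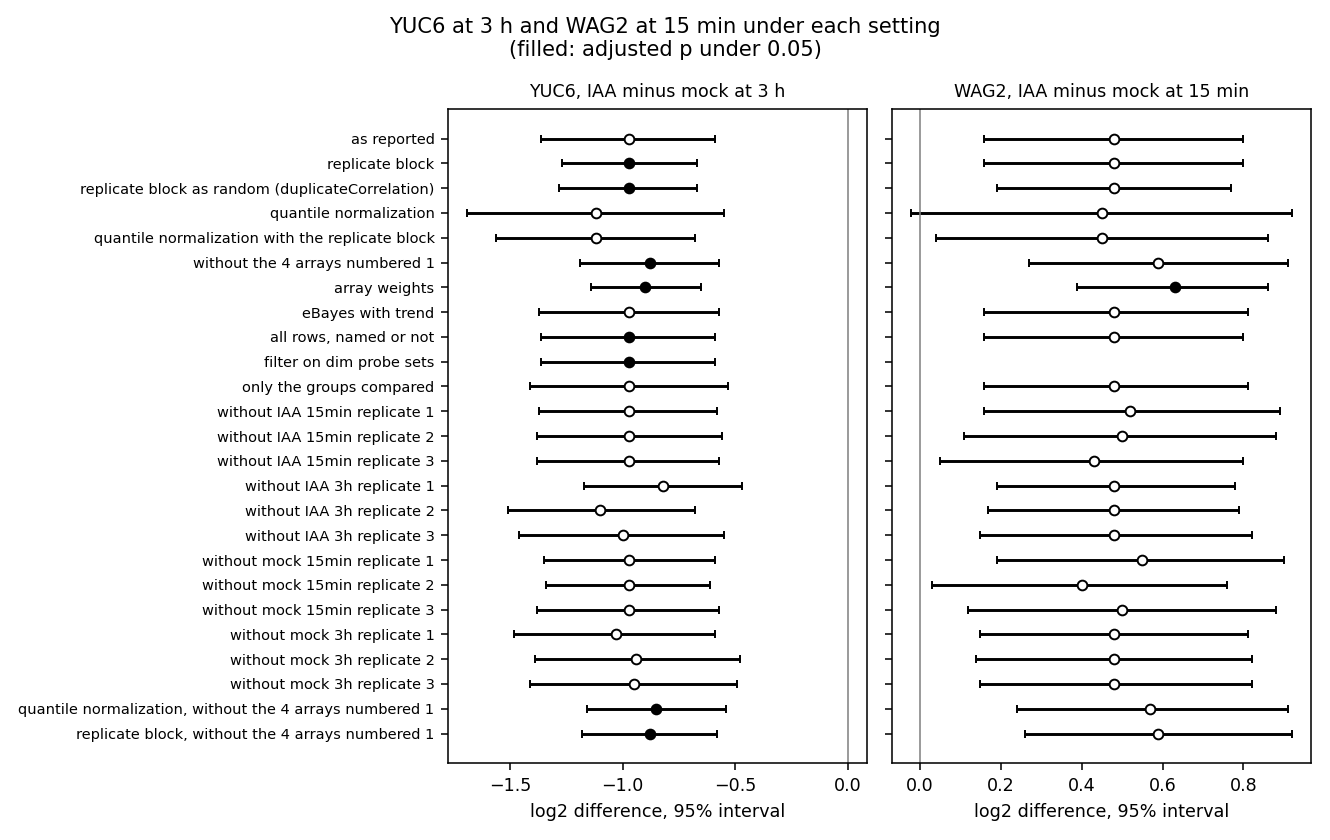
Log2 difference (horizontal axes, with 95% intervals) of YUC6 at 3 h and of WAG2 at 15 min under each setting of the fit, with filled points where the adjusted p was under 0.05. All YUC6 intervals lie below 0 and 8 of the 24 alternatives are filled, while 1 WAG2 point of 23, with array weights, is filled and the interval with quantile normalization (-0.02 to 0.92) crosses 0. Many settings leave the difference itself unchanged by design.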

How the data were processed

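The authors deposited log2 expression levels, and the submitters' processing notes name oligo and RMA without versions. The sources used here give no genome build, and coordinates are left out. Groups and array numbers came from the sample titles. The deposited log2 values were used as they stand. Of 28583 rows, 17504 had a gene name (16746 with 1 gene, 758 with several), updated through a RefSeq table of assembly TAIR10.1 (16601 matched by gene number, 96 by locus tag). Where a locus had more than 1 row, the row with the highest mean stood for it.

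Differences were fitted with limma 3.58.1 under R 4.3.3 by lmFit and eBayes, with all 12 arrays in 1 fit of 4 groups (8 residual and 3.52 prior degrees of freedom), and adjusted over the 17504 rows by Benjamini-Hochberg at 0.05. The fit was tested on simulated data with independent noise of equal spread on every array. That test could not probe shared effects of an array number or the different spread of the arrays numbered 1. After the group means were taken out, same-numbered arrays of IAA and mock correlated at 0.639 to 0.781 for 15 min and 0.117 to 0.172 for 3 h, all over 0.1, so the number was taken as pairing these groups, weakly at 3 h. Mock at 3 h with mock at 15 min (0.0628 to 0.206) or with IAA at 15 min (0.0498 to 0.187) did not meet this. IAA at 3 h met it with mock at 15 min (0.518 to 0.661) and with IAA at 15 min (0.579 to 0.705). Mock at 3 h was thus the group whose numbers followed the others least. The replicate block still fits the same effect of a number in all 4 groups. SEs and intervals are from the fit without the block unless another setting is named. At 3 h the SE was 0.22 with the block against 0.38 without it for GH3.3, and 0.35 against 0.55 for UGT84B2. For AT1G14120 it was 0.19 against 0.18. The labels do not say that a number marks a day. A dim row had a mean under 2.83, the 25th percentile of row means. Array numbers limit the precision. The p-values rest on a spread pooled over the 4 groups and drawn towards that of all rows, from 3 repeats of 1 experiment.

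The 4 genes and the 7 gene lists were chosen with earlier results of these data known. The text names the 4 genes, the measured members of the lists, and for each of the 4 genes the 3 genes with the highest correlation. Alternatives were a replicate block (fixed or random), quantile normalization, array weights, a variance trend, other rows or groups in the fit, and left-out arrays. Tables and figures used Python 3.11.15, pandas 2.3.3 and matplotlib 3.10.9.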

Additional observations from a re-analysis of the deposited data

How the results depend on the processing

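Of 466 combinations of the 20 differences of the 4 genes with an alternative, 440 kept their direction and their side of the threshold, 10 passed it newly and 16 changed sign, all of the latter with adjusted p from 0.681 to 1. Many alternatives cannot move a difference between 2 groups. A block, a variance trend, other rows, only the groups compared and left-out arrays of other groups leave that difference as it was. The count of kept directions is thus partly fixed by design. The YUC6 difference at 3 h passed with the replicate block (-0.97, adjusted p 0.0117), the same block as random (-0.97, 0.00654), all rows (-0.97, 0.048), the filter on dim probe sets (-0.97, 0.045) and array weights (-0.90, 0.000433). It also passed without the 4 arrays numbered 1 (-0.88, 0.0255). With these arrays left out it passed too with quantile normalization (-0.85, 0.0315) and with the replicate block (-0.88, 0.0184), 2 settings chosen after seeing the data. It did not pass with a variance trend (0.073) or with only the groups compared (0.361), and leaving out 1 array gave -1.10 to -0.82. Array weights alone passed YUC6 between the IAA groups (-0.45, 0.0439) and WAG2 at 15 min (0.63, 0.0271). The replicate block changed no other call of the 4 genes. UGT84B1 turned at 3 h to -0.09 without the arrays numbered 1, also with quantile normalization or the block added, and to -0.08 with array weights, and leaving out 1 array gave -0.09 to 0.40. Between its IAA groups it turned to -0.11 under the same 4 settings, and leaving out 1 array gave -0.14 to 0.36. AT1G14120 between the mock groups turned to -0.10 without the arrays numbered 1, with either addition too, and to -0.04 with array weights. At 15 min leaving out 1 array gave -0.17 to 0.03. The causes were not tested. The correlation of UGT84B1 with AT1G67790 turned to -0.281 as deposited. WAG2 and UGT84B1 have no value under the filter on dim probe sets, and the difference of responses none with only the groups compared. Over the whole table limma called 0 genes at 15 min (0 to 42 over the alternatives), 42 at 3 h (6 to 546), 2 for the difference of responses (1 to 127), 0 between the mock groups (0 to 458) and 13 between the IAA groups (0 to 673). Low signal limits UGT84B1, which lay below the 25th percentile on 12 of 12 arrays.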
